A study of Mus musculus with 16 samples.

Results

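A set of 10 autosomal genes differed in level between 2 knockout lines of mouse embryos, with the same direction in the wild types and in the knockouts. The genes are 1500015A07Rik, Gm3893, Zfp932, 2210039B01Rik, Mtg1, Bag3, Gm15446, Itfg2, Rab3gap1 and Efcab7, 10 of 24421 gene symbols in the count table and 10 of the 15641 that passed a filter on low counts. They were selected on measured values, their difference between the libraries labelled alpha3 and those labelled beta, so the sizes of that difference are a description and carry no test. The libraries come from lumbar dorsal root ganglia of C57BL/6 embryos at embryonic day 13.5, sequenced from polyadenylated RNA. KO_alpha3 holds 4 libraries of embryos that lack importin α3 (Kpna4), WT_alpha3 holds 4 wild types labelled with that line, KO_beta holds 4 libraries labelled as knocked out for the 3′ untranslated region of Kpnb1, the importin β1 gene, and WT_beta holds 4 wild types labelled with the second line. The labels name neither the substrain of C57BL/6, the litters, nor the way either allele was made, and they do not say whether each library is an embryo of its own. The p-values therefore rest on the spread among libraries, which may be partly technical.

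Dorsal root ganglia hold the cell bodies of the sensory neurons of trunk and limbs, with their glia. At this stage the neurons extend axons and take on their sensory subtypes. Importin α3 binds the nuclear localization signal of a cargo and importin β1 carries the complex through the nuclear pore. The genes described here have no common pathway. Zfp932 and Gm15446 are related zinc finger genes whose products bind endogenous retroviruses. Mtg1 is a GTPase that helps to assemble the large subunit of the mitochondrial ribosome. Bag3 is a co-chaperone of Hsp70 that, with the small heat shock protein Hspb8, sends damaged proteins to autophagy. Itfg2 is a subunit of KICSTOR, which holds the amino acid sensor GATOR1 at the lysosome and so restrains mTORC1. Rab3gap1 is the catalytic subunit of the complex that inactivates Rab3 on synaptic vesicles. Efcab7 tethers the EvC complex at the base of the primary cilium, where it serves Hedgehog signalling. 1500015A07Rik and 2210039B01Rik are annotated as long noncoding RNAs, and Gm3893 as a transcribed pseudogene by RefSeq and as protein coding by GENCODE. Gm15446 is a long noncoding RNA in RefSeq and protein coding in GENCODE.

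Library totals ran from 19682595 to 26873361 counts. The 8 sensory neuron markers were detected throughout, with a sum of 3849 to 8117 CPM per library, where CPM are counts set to a common library total with edgeR's TMM factors. Kpna4 lay at 0.619 to 1.13 CPM in KO_alpha3 and 69.5 to 81.3 CPM in the other 12 libraries. Kpnb1 lay at 514 to 563 CPM in KO_beta, 390 to 452 CPM in WT_beta and 391 to 594 CPM in the alpha3 line. Its count per gene thus shows no loss in KO_beta and cannot check that label, which names the 3′ untranslated region alone. Y-linked genes summed to over 100 CPM in all WT_alpha3 and KO_beta libraries and in KO_alpha3 50 and 75, and to 0 to 1.15 CPM in all WT_beta libraries and in KO_alpha3 42 and 81. Sex therefore moves with the line among the wild types and with the genotype in the beta line, where the effect of the knockout and of sex cannot be told apart without the alpha3 libraries. Markers of other tissues were highest in single wild types: WT_beta 401 led in skeletal muscle (623 CPM), WT_beta 399 in liver (4255 CPM) and WT_alpha3 79 in erythroid cells (9393 CPM).

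Of the 10 genes, 4 lay higher in the alpha3 line (1500015A07Rik, Bag3, Rab3gap1 and Efcab7) and 6 lower (Gm3893, Zfp932, 2210039B01Rik, Mtg1, Gm15446 and Itfg2), with the same direction among wild types and among knockouts. Averaged over both genotypes, edgeR's log2 difference ran from -5.51 ± 0.29 (SE) for Gm3893 to 2.03 ± 0.10 for 1500015A07Rik. All 10 were among the 17 genes past an adjusted p of 0.05 between the lines (0.109% of those tested; DESeq2 called 1.19%, the 10 among them). In wild types alone 3 of them were among 3 such genes (0.0192%), and in knockouts alone 4 were among 5 (0.032%). In 7 of the 10, all 8 alpha3 libraries lay on 1 side of all 8 beta libraries, against 32 genes in all (0.205%). The other 3, Bag3, Gm15446 and Rab3gap1, overlapped in 1 or 2 libraries and so do not fully separate the lines. With 4 libraries against 4, 9 of the 10 were apart in wild types (2.71% of all genes tested) and 8 in knockouts (4.57%). Among knockouts with Y-linked reads, KO_alpha3 50 and 75 lay on 1 side of all 4 KO_beta libraries in 9 of the 10, the exception being Gm15446. The share of all tested genes apart in these few libraries was not counted. Fewer libraries lie apart more readily by chance, so the part of sex was not tested by this. Since these contrasts chose the genes, nothing is read from the shares or from that count.

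**Figure D1:**
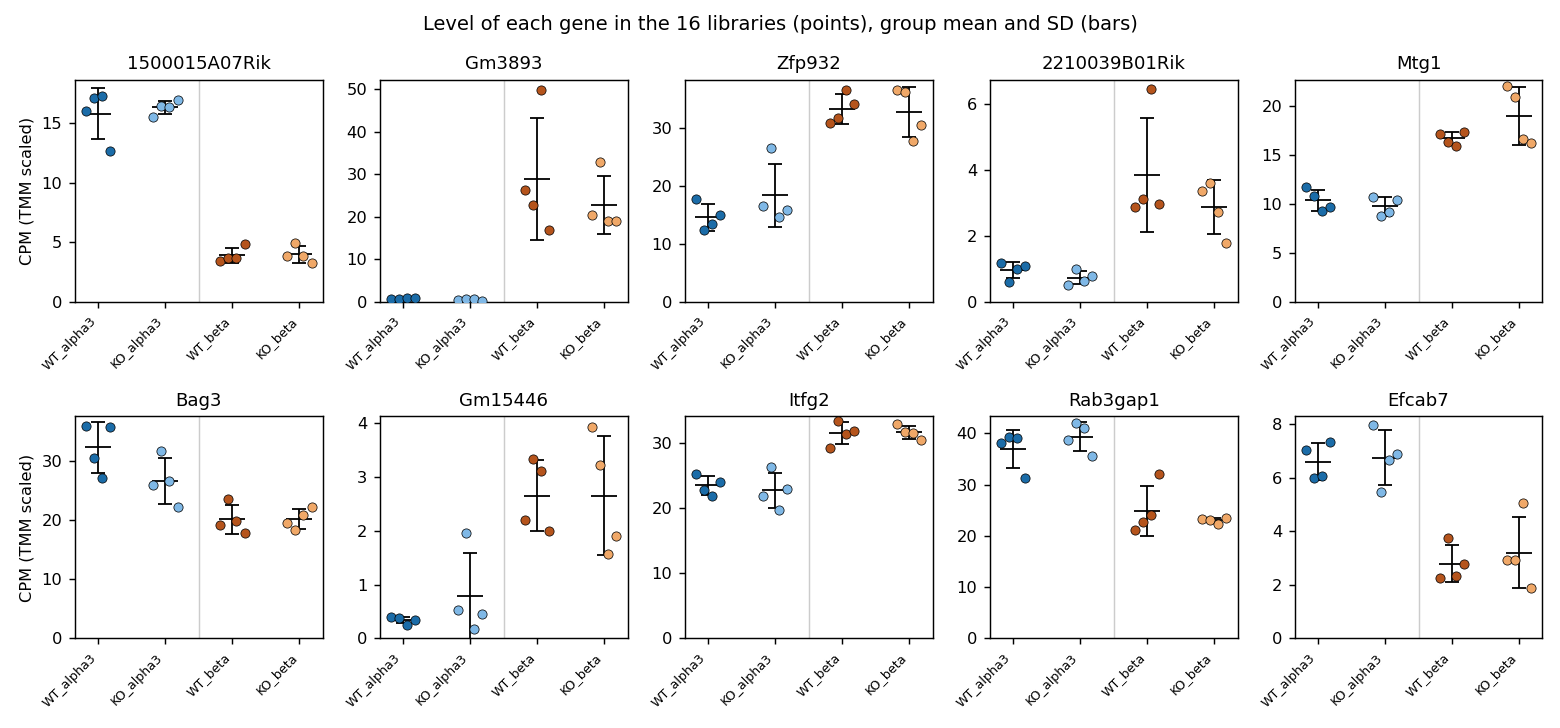
Level of each of the 10 genes in CPM (y axis, linear, from 0) in the 4 groups (x axis). Points are libraries, bars the group mean and SD (n = 4, cut at 0 where they reach below it); blue shades are the alpha3 line and orange shades the beta line, and in every gene the means of the 2 groups of 1 line lie closer to each other than to those of the other line.

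**Figure D2:**
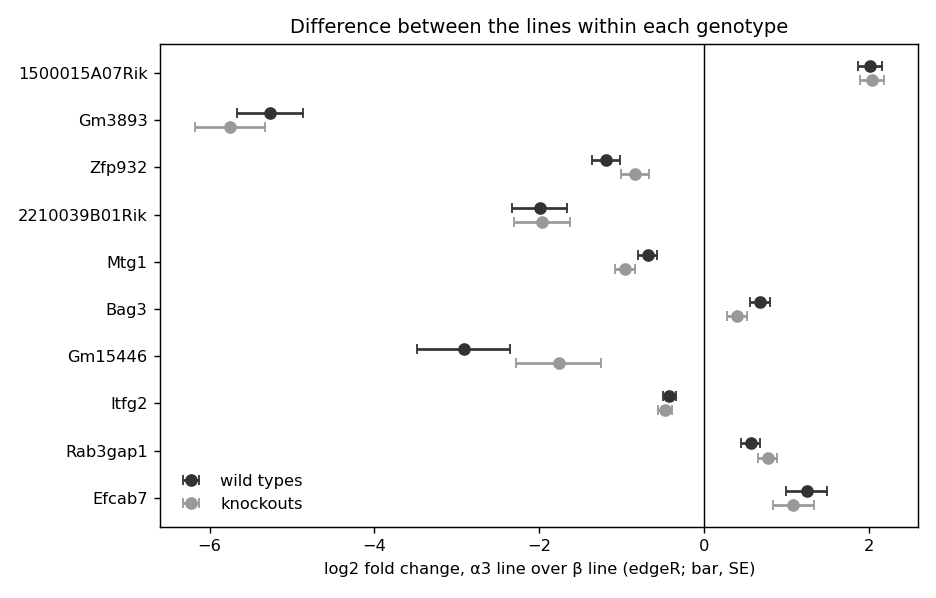
Log2 fold change of the alpha3 over the beta line (x axis, edgeR, bar SE) for each gene, in wild types (dark) and in knockouts (grey). The 2 estimates share a sign in all 10 genes and run from -5.76 for Gm3893 to 2.04 for 1500015A07Rik among the knockouts.

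The long noncoding RNA 1500015A07Rik (chromosome 18, 61726390 to 61728254, plus strand, mm10) was 4.07-fold higher in the alpha3 line. It measured 16.0, 17.2, 17.3 and 12.7 CPM in WT_alpha3 45, 54, 55 and 79. In KO_alpha3 42, 50, 75 and 81 it measured 15.5, 16.5, 16.4 and 16.9 CPM. In WT_beta 399, 401, 410 and 415 it was 3.43, 3.69, 3.69 and 4.81 CPM, and in KO_beta 398, 402, 406 and 411 it was 3.88, 4.91, 3.86 and 3.27 CPM. The lowest alpha3 library, at 12.7 CPM, stood far above the highest beta library at 4.91 CPM. The log2 difference was 2.01 ± 0.15 in wild types and 2.04 ± 0.15 in knockouts. WT_alpha3 79, the low library, also had the lowest sensory marker sum of all 16 (3849 CPM), and the part of that in the value was not tested. GENCODE extends the gene to 61735917 and there places Afap1l1 over it on the opposite strand, while in RefSeq Afap1l1 lies 2.01 kb away. Where the genes overlap their reads cannot be told apart, since the strand setting of the counting is not stated. Afap1l1 went the other way, at 21.6 CPM in the alpha3 and 25.4 CPM in the beta line (log2 difference -0.24 ± 0.05, edgeR adjusted p = 0.126). DESeq2 called it between the lines.

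Gm3893 (chromosome 4, 42089373 to 42092930, mm10) was at a low level in the alpha3 line and at a moderate one in the beta line. WT_alpha3 45, 54, 55 and 79 held 0.680, 0.561, 0.824 and 0.935 CPM, from 12 to 19 reads each, and KO_alpha3 42, 50, 75 and 81 held 0.320, 0.580, 0.619 and 0.167 CPM, from 4 to 14 reads. WT_beta 399, 401, 410 and 415 held 26.3, 22.8, 49.8 and 16.9 CPM, and KO_beta 398, 402, 406 and 411 held 20.4, 33.0, 19.1 and 18.9 CPM. The ranges of the lines are far apart, while the beta libraries differ among themselves, with WT_beta 410 and KO_beta 402 the highest of their groups. The line means were 0.586 ± 0.249 and 25.9 ± 10.9 CPM (SD, n = 8), 44.2 times as much in the beta line. Of the 860 stretches of 50 bases in its GENCODE transcript, 97.7% also occur in transcripts of 17 other genes, and 12 genes share at least 10% of them. None of the 12 has values in the table used here, so the count of Gm3893 may hold reads of its copies and the copies cannot be compared.

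The second noncoding RNA, 2210039B01Rik (chromosome 12, 73548483 to 73551986, plus strand, mm10), was 3.95-fold lower in the alpha3 line. It measured 1.16, 0.608, 0.979 and 1.08 CPM in WT_alpha3 45, 54, 55 and 79 and 0.519, 0.982, 0.619 and 0.793 CPM in KO_alpha3 42, 50, 75 and 81. It measured 2.87, 3.10, 6.43 and 2.96 CPM in WT_beta 399, 401, 410 and 415 and 3.35, 3.59, 2.71 and 1.77 CPM in KO_beta 398, 402, 406 and 411. The lines did not overlap, although KO_beta 411 at 1.77 CPM came near WT_alpha3 45 at 1.16 CPM. WT_beta 410 and KO_beta 402 were the highest of their groups in 2210039B01Rik as in Gm3893, which lies on another chromosome. After the group means were taken out, the Pearson r of these genes over the 16 libraries, on log2(CPM + 1), was 0.76, and 0.46 without WT_beta 410. These and the other r values given here are descriptions of libraries that share depth and scaling, with no test. Of the 50-base stretches of 2210039B01Rik, 22.8% also occur in D10Wsu102e, which was at 40.9 CPM in the alpha3 and 38.4 CPM in the beta line, a log2 difference of 0.09 (edgeR adjusted p = 0.504).

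Zfp932 (chromosome 5, 109996502 to 110012266, plus strand, mm10) and Gm15446 (109933563 to 109941710 on the same strand) lie 54.8 kb apart with no other tested gene between them. Both were lower in the alpha3 line. They are close paralogues: 34.9% of the 50-base stretches of Zfp932 transcripts occur in Gm15446, and 31.5% of those of Gm15446 in Zfp932. Along the coding sequences of 1578 and 1659 bases there are 11 identical stretches of at least 50 bases, the longest of 195 bases. The sequences below, from the GENCODE M21 transcripts of GRCm38, show what a read has to tell them apart by. First come the middle 30 bases of the longest identical stretch, and bases within that stretch alone cannot assign a read. Then comes a window of 30 bases with 6 differences, in capitals.
Zfp932, identical stretch: gtactaaatcctttgcctctcatggtcaac
Gm15446, identical stretch: gtactaaatcctttgcctctcatggtcaac
Zfp932, window with differences: tGaaaGaAATcatactggagagaaacCcta
Gm15446, window with differences: tAaaaTaGTAcatactggagagaaacGcta

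Zfp932 measured 17.6, 12.4, 13.3 and 14.9 CPM in WT_alpha3 45, 54, 55 and 79 and 16.5, 26.4, 14.7 and 15.8 CPM in KO_alpha3 42, 50, 75 and 81. In WT_beta 399, 401, 410 and 415 it measured 30.8, 31.6, 36.4 and 34.01 CPM, and in KO_beta 398, 402, 406 and 411 it measured 36.4, 36.2, 27.7 and 30.5 CPM. The lines stayed apart by a narrow margin, 26.4 CPM in KO_alpha3 50 against 27.7 CPM in KO_beta 406, while the other 7 alpha3 libraries reached at most 17.6 CPM. Gm15446 measured 0.400, 0.374, 0.258 and 0.344 CPM in WT_alpha3 and 0.519, 1.96, 0.177 and 0.459 CPM in KO_alpha3, in the same order of libraries. It measured 2.19, 3.32, 3.09 and 1.99 CPM in WT_beta and 3.92, 3.21, 1.57 and 1.89 CPM in KO_beta. Here KO_alpha3 50, at 1.96 CPM, lay above KO_beta 406 and 411, and the other 7 alpha3 libraries held at most 13 reads each.

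KO_alpha3 50 was therefore the highest alpha3 library in both zinc finger genes. It stood 63.5% of the way from the mean of the other 7 alpha3 libraries to the beta mean in Zfp932, and 70.04% of the way in Gm15446. Without it the log2 difference between the lines moved from -1.01 to -1.11 for Zfp932 and from -2.34 to -2.82 for Gm15446. Around the group means the genes had an r of 0.82 over the 16 libraries and 0.62 without KO_alpha3 50. Gm15446 was 1.20% to 7.43% of the CPM of Zfp932 in the alpha3 libraries and 5.67% to 10.8% in the beta libraries, so the share is not constant. In the same library the sensory marker sum was the highest of all 16 (8117 CPM) and the skeletal muscle sum the highest of KO_alpha3 (132 CPM, the others 14.9 to 51.3 CPM), and the part of these in the value was not tested.

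**Figure D3:**
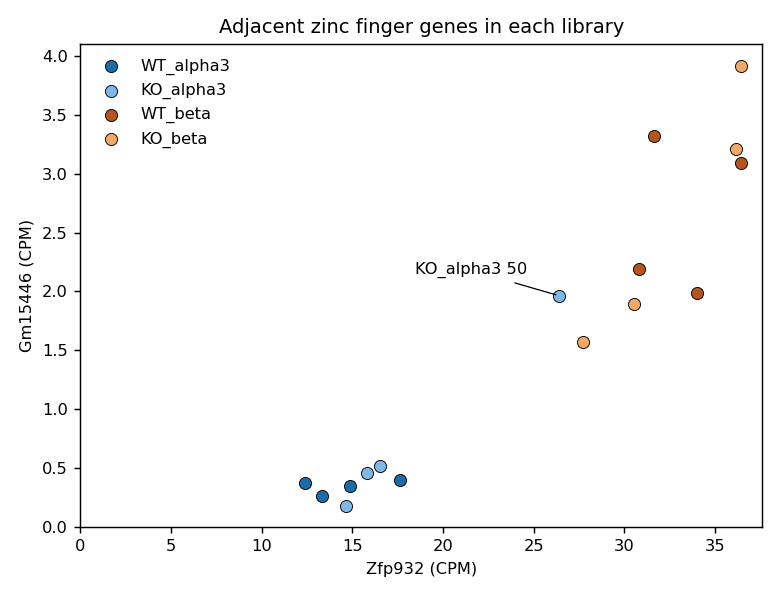
CPM of Zfp932 (x axis) against CPM of its neighbour Gm15446 (y axis), 1 point per library, coloured by group. The other 7 alpha3 libraries lie at the lower left, the 8 beta libraries at the upper right, and KO_alpha3 50 (26.4 and 1.96 CPM) near the lower beta libraries.

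Lists of genes that work with members of the set were compared between the lines in the same way. For reading their counts, 11.8% of all tested genes were at an unadjusted p under 0.05 and DESeq2 called 1.19%. Of 17 genes of KRAB zinc finger repression, which brings histone and DNA methylation to repeats, 0 passed between the lines in edgeR, with 3 at an unadjusted p under 0.05 and 0 called by DESeq2. Their median log2 difference was 0.12, against -0.00074 over all tested genes, and 15 of the 17 were above 0. The lowest p belonged to Pphln1, a subunit of the HUSH silencing complex, at 60.0 ± 6.33 CPM in the alpha3 and 50.5 ± 3.37 CPM in the beta line (SD, n = 8, log2 difference 0.25 ± 0.07, edgeR adjusted p = 0.216).

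Among the genes of cell machinery, Mtg1 (chromosome 7, 140137564 to 140150786, plus strand, mm10) was 1.77-fold lower in the alpha3 line. It ranged from 9.27 to 11.7 CPM in WT_alpha3 and from 8.74 to 10.7 CPM in KO_alpha3, and from 15.9 to 17.4 CPM in WT_beta and 16.2 to 22.03 CPM in KO_beta. The lines did not overlap in either genotype, and KO_beta 398 and 402, at 22.03 and 20.9 CPM, stood above the other 6 beta libraries. The end of Mtg1 overlaps Sprn on the opposite strand, a gene at 34.8 CPM in the alpha3 and 57.2 CPM in the beta line with a log2 difference of -0.71 ± 0.35 (edgeR adjusted p = 0.446). Reads in the overlap cannot be assigned without the strand setting. Of 18 other assembly factors of the mitochondrial ribosome 0 passed in edgeR (1 at an unadjusted p under 0.05, 0 by DESeq2), with a median log2 difference of 0.01. The lowest p was that of Nsun4, a methyltransferase of mitochondrial ribosomal RNA, at 17.2 ± 1.56 CPM in the alpha3 and 19.1 ± 1.21 CPM in the beta line (SD, n = 8, edgeR adjusted p = 0.369).

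Bag3 lies 11.6 Mb from Mtg1 (chromosome 7, 128523583 to 128546981, plus strand, mm10) and went the other way, 1.45-fold higher in the alpha3 line. It measured 35.9, 30.5, 27.1 and 35.7 CPM in WT_alpha3 45, 54, 55 and 79 and 26.01, 31.6, 26.7 and 22.2 CPM in KO_alpha3 42, 50, 75 and 81. It measured 19.2, 23.6, 19.9 and 17.9 CPM in WT_beta 399, 401, 410 and 415 and 19.5, 18.3, 20.8 and 22.3 CPM in KO_beta 398, 402, 406 and 411. KO_alpha3 81 lay below WT_beta 401 and KO_beta 411, and the other 7 alpha3 libraries were above all beta libraries. The log2 difference was 0.68 ± 0.12 in wild types and 0.40 ± 0.12 in knockouts. Striated muscle is rich in Bag3. The sum of 6 skeletal muscle markers ran from 14.9 to 267 CPM in the alpha3 and from 42.6 to 623 CPM in the beta libraries, which overlap, and 0 of the 6 passed the threshold (1 at an unadjusted p under 0.05, 0 by DESeq2). The median log2 difference of the 6 was -0.88, and 0 of them lay above 0. The part of muscle in the level of Bag3 was not tested.

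The partners of Bag3 did not follow it as a list. Of 22 genes of the BAG family and of chaperone-assisted autophagy 11 were higher and 11 lower in the alpha3 line, with a median log2 difference of 0.01 and 0 past the threshold in edgeR (3 at an unadjusted p under 0.05, 1 by DESeq2). The gene called by DESeq2 was Hsf1, the transcription factor of the heat shock response. It stood at 49.7 ± 4.65 CPM in the alpha3 and 41.9 ± 2.39 CPM in the beta line (SD, n = 8, log2 difference 0.25 ± 0.06, edgeR adjusted p = 0.133).

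Itfg2 (chromosome 6, 128409047 to 128424927, minus strand, mm10) had the smallest difference of the 10, 1.37-fold lower in the alpha3 line, with little spread within the groups. It ranged from 21.9 to 25.2 CPM in WT_alpha3 and from 19.8 to 26.3 CPM in KO_alpha3, and from 29.3 to 33.4 CPM in WT_beta and 30.4 to 32.9 CPM in KO_beta. The highest alpha3 library was again KO_alpha3 50, at 26.3 CPM, below the lowest beta library at 29.3 CPM. Around the group means Itfg2 had an r of 0.79 with Zfp932 and 0.76 with Gm15446, which lie on another chromosome, and 0.57 and 0.53 without KO_alpha3 50. Its 3′ part overlaps Nrip2 on the opposite strand, which went the other way at 5.88 CPM in the alpha3 and 4.35 CPM in the beta line (log2 difference 0.42 ± 0.18, edgeR adjusted p = 0.383). Of 29 other genes of KICSTOR, GATOR and the Rag arm of mTORC1 0 passed in edgeR (5 at an unadjusted p under 0.05, 1 by DESeq2), with a median log2 difference of 0.0027 and 16 above 0. Sesn1, a sestrin, which restrains mTORC1 through GATOR2, was the gene called by DESeq2, at 34.03 ± 4.37 CPM in the alpha3 and 41.3 ± 1.505 CPM in the beta line (SD, n = 8, log2 difference -0.28 ± 0.07, edgeR adjusted p = 0.196).

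Rab3gap1 (chromosome 1, 127868755 to 127943876, plus strand, mm10) was 1.59-fold higher in the alpha3 line. It measured 38.1, 39.3, 39.1 and 31.3 CPM in WT_alpha3 45, 54, 55 and 79 and 38.8, 42.0, 41.0 and 35.6 CPM in KO_alpha3 42, 50, 75 and 81. It measured 21.1, 22.7, 24.0 and 32.1 CPM in WT_beta 399, 401, 410 and 415 and 23.3, 23.1, 22.4 and 23.5 CPM in KO_beta 398, 402, 406 and 411. The overlap came from 2 wild types, WT_alpha3 79 at 31.3 CPM and WT_beta 415 at 32.1 CPM. The other 7 alpha3 libraries ran from 35.6 to 42.0 CPM and the other 7 beta libraries from 21.1 to 24.0 CPM. WT_alpha3 79 was also the lowest alpha3 library in 1500015A07Rik, and the r of these genes around the group means was 0.68, and 0.56 without it. Its partner in the Rab3 GTPase-activating complex, Rab3gap2, was at 81.5 ± 3.19 CPM in the alpha3 and 80.0 ± 4.90 CPM in the beta line (SD, n = 8, log2 difference 0.03 ± 0.04, edgeR adjusted p = 0.797). Of 13 genes of the Rab3 and Rab18 cycle, Rab3gap2 among them, 0 passed in edgeR (0 at an unadjusted p under 0.05, 0 by DESeq2), with a median of -0.02.

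Efcab7 (chromosome 4, 99829445 to 99912788, plus strand, mm10) was 2.24-fold higher in the alpha3 line. It ranged from 5.98 to 7.33 CPM in WT_alpha3 and from 5.49 to 7.99 CPM in KO_alpha3, and from 2.26 to 3.77 CPM in WT_beta and 1.89 to 5.05 CPM in KO_beta. The gap between the lines was narrow, 5.49 CPM in KO_alpha3 50 against 5.05 CPM in KO_beta 406, a library that stood apart from the other 7 beta libraries. GENCODE places Itgb3bp over the gene on the opposite strand, at 7.62 CPM in the alpha3 and 6.57 CPM in the beta line (log2 difference 0.22 ± 0.13, edgeR adjusted p = 0.512). Of 22 genes of the EvC complex and Hedgehog signalling 0 passed in edgeR (2 at an unadjusted p under 0.05, 0 by DESeq2), with a median of -0.0038 and 10 above 0. The lowest p was that of Smo, the signal transducer of the pathway, at 85.6 ± 16.6 CPM in the alpha3 and 70.9 ± 10.5 CPM in the beta line (SD, n = 8, edgeR adjusted p = 0.409).

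Per kilobase of GENCODE exon the genes ranked differently in the lines, where the lengths used in the counting are not stated. In the alpha3 line the highest level per length was that of Bag3, at 11.5 CPM per kb, followed by 1500015A07Rik at 6.99 and Zfp932 at 5.03 CPM per kb. In the beta line Zfp932, at 10.1 CPM per kb, was above Bag3 at 7.88 CPM per kb. Gm15446 was at 0.149 CPM per kb in the alpha3 line. Gm3893 is not ranked, since RefSeq and GENCODE give it different extents (42089373 to 42092930 and 42091207 to 42092287) and its count may hold reads of copies. The extents also differ for 1500015A07Rik, which ends at 61728254 in RefSeq and at 61735917 in GENCODE. Gm15446 runs from 109933563 to 109941710 in RefSeq and from 109923400 to 109943936 in GENCODE. The levels per kb of these genes therefore depend on the annotation. In bulk ganglia fewer cells that use a gene and less of its RNA per cell cannot be told apart.

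Within each line the knockout left none of the 10 genes past the threshold, and this contrast was not used to choose them. In KO_alpha3 against WT_alpha3, edgeR called 0 of the 10 (1 at an unadjusted p under 0.05, 0 by DESeq2), and 1 gene of all tested, Kpna4 (0.00639%; 5.98% at an unadjusted p under 0.05, and 0.0192% called by DESeq2). The adjusted p of the 10 ran from 0.834 to 0.992. In KO_beta against WT_beta it called 0 of the 10 (0 at an unadjusted p under 0.05, 0 by DESeq2) and 0 of all tested (0%), with 325 genes at an unadjusted p under 0.05 (2.08%) and 5 called by DESeq2 (0.032%). All KO_beta libraries have Y-linked reads and all WT_beta libraries lack them, so this comparison is also one of sex. With a covariate for Y-linked reads, which only the KO_alpha3 libraries inform, Gm15446 moved from 0.0018 to -1.12 ± 0.86 and Gm3893 from -0.34 to -1.62 ± 0.72 (edgeR adjusted p = 0.59 and 0.416). The groups of 1 line overlapped in each of the 10 genes in both comparisons. Of all tested genes 1.8% did not overlap between KO_alpha3 and WT_alpha3 and 3.92% between KO_beta and WT_beta. Most genes thus overlap, and the overlap of the 10 is not read as a trait of the set.

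The lowest p in the alpha3 line was that of Bag3, at 26.6 ± 3.89 CPM in KO_alpha3 and 32.3 ± 4.29 CPM in WT_alpha3 (SD, n = 4). Its log2 fold change was -0.28 ± 0.12 (edgeR, unadjusted p = 0.0389, adjusted p = 0.834, exact permutation p = 0.114), and 3 of the 4 knockout values lay below all 4 wild types. Bag3 was at 20.2 ± 1.71 CPM in KO_beta and 20.2 ± 2.45 CPM in WT_beta (SD, n = 4), a log2 fold change of 0.0024 ± 0.12. Gm3893 was at 0.421 ± 0.215 CPM in KO_alpha3 and 0.750 ± 0.164 CPM in WT_alpha3, and had the lowest of the 20 exact 2-sided permutation p-values, 0.0857, where 4 against 4 can reach 0.0286. Gm15446 had the largest fitted change, 1.15 ± 0.57 in KO_alpha3 (edgeR adjusted p = 0.843), and without KO_alpha3 50 it was 0.18. Zfp932 was at 0.33 ± 0.17 (edgeR adjusted p = 0.851) and, without that library, 0.13. 2210039B01Rik was at -0.40 ± 0.34 in KO_alpha3 and -0.42 ± 0.31 in KO_beta (edgeR adjusted p = 0.956 and 0.9998), and kept its sign under every alternative in both lines. In Rab3gap1, Efcab7, Itfg2, Mtg1 and 1500015A07Rik the fitted changes lay between -0.11 and 0.19 in both lines, against SEs of 0.08 to 0.25.

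The test of the difference between the 2 knockout effects called 0 of the 10 in edgeR (0 at an unadjusted p under 0.05, 0 by DESeq2), with adjusted p-values of 0.996 or more, and 1 gene of all tested (0.00639%; 1.22% at an unadjusted p under 0.05, and 0.0384% called by DESeq2). This test holds the sexes of the beta line too. The lowest unadjusted p among the 10 was 0.119, in Mtg1, at -0.27 ± 0.17 (edgeR adjusted p = 0.996). These intervals are wide for the low genes, and a p above the threshold does not show that the genotypes have equal levels.

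**Figure D4:**
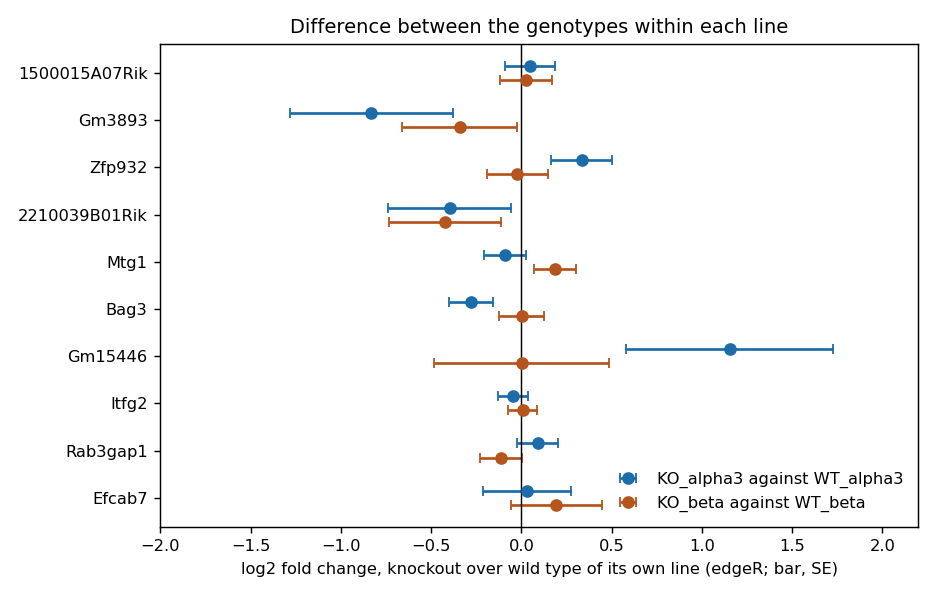
Log2 fold change of each knockout over the wild types of its own line (x axis, edgeR, bar SE) for the 10 genes (y axis), alpha3 line in blue and beta line in orange. The values run from -0.83 (Gm3893) to 1.15 (Gm15446), both in the alpha3 line, and none passed the threshold.

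The design text of the series pools the 8 wild types for both knockouts, and for these genes such a pool joins libraries of unlike level. Gm3893 was at -5.14 ± 1.38 in KO_alpha3 against the 8 wild types and at -0.83 ± 0.45 against WT_alpha3. For 2210039B01Rik the same values were -1.72 ± 0.55 and -0.40 ± 0.34. In KO_beta, 1500015A07Rik was at -1.30 ± 0.47 against the 8 wild types and at 0.03 ± 0.14 against WT_beta. Against the pool edgeR called 0 of the 10 in KO_alpha3 (5 at an unadjusted p under 0.05; DESeq2 called 1, Gm3893), where it called 1 gene of all tested (0.00639%; 10.8% at an unadjusted p under 0.05, and 0.819% called by DESeq2). In KO_beta it called 0 of the 10 (3 at an unadjusted p under 0.05, 0 by DESeq2) and 0 of all tested (0%; 2.23% at an unadjusted p under 0.05, and 0.0064% called by DESeq2). The 2 pooled comparisons share their 8 wild types, and each contains a part of the difference between the lines that chose the genes.

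The genes are spread over 7 chromosomes, none of them chromosome 3 or 11, where Kpna4 and Kpnb1 lie. Chromosomes 4, 7 and 5 hold 2 of the genes each: Gm3893 and Efcab7 lie 57.7 Mb apart on chromosome 4, Bag3 and Mtg1 11.6 Mb apart on chromosome 7, and the zinc finger pair 54.8 kb apart on chromosome 5. Within 1 Mb of the 10 genes there were 206 other tested genes, and 0 of them passed between the lines in edgeR, with 45 at an unadjusted p under 0.05 (21.8%, against 11.8% of all tested). DESeq2 called 11 of 205, 5.37% against 1.19% of all. These were Adam8, Afap1l1, Camk2a, Cfap46, Fam205c, Gm10069, Pzp, R3hdm1, Sh3tc2, Tulp3 and Ubap2. Their log2 differences in edgeR ran from -3.00 ± 0.90 for Pzp to 1.02 ± 0.22 for Adam8. Of the 206, 1 separated all 8 alpha3 from all 8 beta libraries, Cfap46, 1 of 34 tested neighbours of Mtg1, at a log2 difference of -0.998 (edgeR adjusted p = 0.0914). The nearest tested genes outside the set did not pass in edgeR either, but DESeq2 called Afap1l1, next to 1500015A07Rik, and Fam205c, 775 kb from Gm3893. Fam205c was at 1.17 CPM in the alpha3 and 2.04 CPM in the beta line (log2 difference -0.80 ± 0.19, edgeR adjusted p = 0.139). Grpel2, a mitochondrial co-chaperone 32 bases from 1500015A07Rik, was at 44.2 CPM in the alpha3 and 49.0 CPM in the beta line. In the same order Paox, a polyamine oxidase next to Mtg1, was at 18.4 and 17.96 CPM. Tial1, an RNA-binding protein next to Bag3, was at 89.1 and 85.9 CPM. Fkbp4, an Hsp90 co-chaperone 5.18 kb from Itfg2, was at 252 and 246 CPM.

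**Figure D5:**
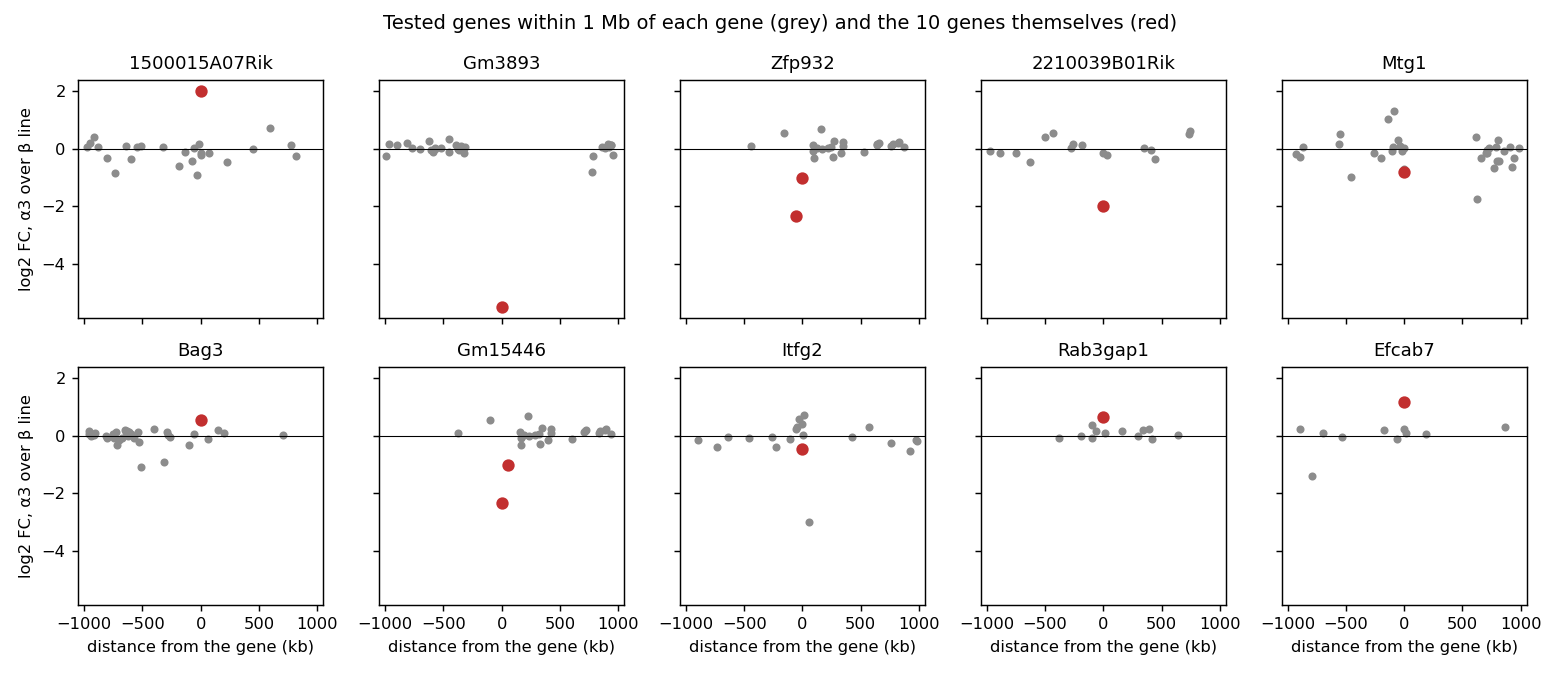
Log2 fold change of the alpha3 over the beta line (y axis, edgeR) of every tested gene within 1 Mb of each of the 10 genes, by distance in kb (x axis). Red points are genes of the set, 2 of them in the panels of Zfp932 and Gm15446, and grey points are the other 206 genes, none of which passed the threshold in edgeR.

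Outside the set and its neighbourhoods, 7 genes passed between the lines. Kpna4 is 1 of them through its loss in KO_alpha3. Pink1, the kinase that marks damaged mitochondria, Cda, a cytidine deaminase, and Camk2n1, an inhibitor of CaM kinase II, lie on chromosome 4, 38.4 to 38.5 Mb from Efcab7, and were lower in the alpha3 line, at -0.47 ± 0.07, -1.17 ± 0.20 and -0.78 ± 0.12. The others were Rnf167, Isoc1 and Cdkn1b. Gene by gene, the pattern over the 16 libraries most like that of 1500015A07Rik and of Rab3gap1 was that of Rnf167, a ubiquitin ligase (Pearson r of log2(CPM + 1) 0.89 for each), while Pink1 was the most alike for Gm3893 (r of 0.87) and Cda for Mtg1 (r of 0.91). With the group means taken out, r was 0.14 and 0.29 for Rnf167, 0.10 for Pink1 and 0.78 for Cda, so the likeness of the first 3 pairs is that of the group means. For the most alike genes of the rest of the set, r with the group means taken out varied too. It was 0.80 for Itfg2 with Adamts19, 0.80 for Gm15446 with Nppa, 0.64 for Bag3 with Adam8 and 0.62 for Efcab7 with Akr7a5. It was 0.30 for 2210039B01Rik with Adamts19 and 0.16 for Zfp932 with Ccl28. Of 7 genes known to differ between C57BL/6 substrains 5 could be tested and 0 passed in edgeR (0 at an unadjusted p under 0.05, 0 by DESeq2). Nnt, a mitochondrial transhydrogenase that is disrupted in the J substrain, was detected in all libraries. It was at 30.04 to 46.5 CPM in the alpha3 and 17.96 to 36.3 CPM in the beta line (edgeR adjusted p = 0.466). Counts per gene do not show changes of sequence, so these values do not tell whether the lines share a substrain.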

How the data were processed

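Every value and test here starts from the read counts that the authors deposited, whole numbers for each gene symbol. A second deposited table equals the counts multiplied by 1 constant per library and was not used. Per the submitters' processing notes, TopHat2 2.0.10 and HTSeq 0.6.1p1 were used with build mm10, beside cutadapt, bcl2fastq 2.17.1.14 and DESeq2 1.6.3, without roles or order. Strand setting, annotation and filters are not stated there, so reads of copies and of overlapping genes cannot be assigned.

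Of the 24421 symbols, 3922 had no count. R 4.3.3 with edgeR 4.0.16 fitted 4 groups to all 16 libraries (TMM, filterByExpr with minimum count 10 and total 15, quasi-likelihood, 2-sided, Benjamini-Hochberg at 0.05 over 15641 genes). A fit with 3 groups pooled the wild types, as the series describes. CPM are these counts set to a common library total after TMM scaling. Exact permutation tests used log2(CPM + 1). The code was tested on simulated counts. Alternatives were DESeq2 1.42.0, other scalings, no filter, a Y-linked covariate, fewer libraries and another pseudocount. No number is shared between groups, so libraries could not be paired.

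The 10 genes and the lists of partners were chosen with earlier results of these data known. Other genes named are the nearest tested neighbours, the neighbours that DESeq2 called, the most alike gene over the 16 libraries, the genes with the lowest p of a list and the genes past the threshold between the lines. Positions are from RefSeq on GRCm38.p6, the build of mm10, and transcripts from GENCODE M21. Low counts in the alpha3 line limit Gm3893 (4 to 19 reads per library), Gm15446 (4 to 44) and 2210039B01Rik (13 to 29).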

Additional observations from a re-analysis of the deposited data

Results flagged for a closer look

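In 4 of 40 groups of 4 libraries (10 genes in 4 groups), 1 library stood further from the nearest other than Dixon's 95% critical value allows, where chance flags about 1 group in 20. Gm3893 was at 33.0 CPM in KO_beta 402 and at 18.9 to 20.4 CPM in the other 3 libraries of the group. Zfp932 was at 26.4 CPM in KO_alpha3 50 and at 14.7 to 16.5 CPM in the others. 2210039B01Rik was at 6.43 CPM in WT_beta 410 and at 2.87 to 3.10 CPM in the others. Rab3gap1 was at 31.3 CPM in WT_alpha3 79 and at 38.1 to 39.3 CPM in the others.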

How the results depend on the processing

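Between the lines the log2 differences of the 10 genes kept their sign under every alternative run, averaged over the genotypes, in wild types and in knockouts. The genes were chosen on this difference in the same libraries, so a kept sign was likely from the start and is no support for it. A size is listed below where it moved by more than the SD of log2(CPM + 1) within the groups. That SD is not the error of the fitted difference, so a listed move can be smaller than its SE. Without KO_alpha3 50 the difference of Gm15446 was -2.82. In wild types the sizes listed for the Y-linked covariate, with the SE of the covariate fit, were these. Gm3893 went from -5.27 to -6.54 ± 0.75, Gm15446 from -2.92 to -4.04 ± 0.91 and Zfp932 from -1.19 to -1.53 ± 0.28. Efcab7 went from 1.24 to 1.53 ± 0.43 and Mtg1 from -0.69 to -0.45 ± 0.19. Bag3 went from 0.68 to 0.40 ± 0.20 and Rab3gap1 from 0.57 to 0.41 ± 0.20. Without the 4 wild types named below, Zfp932 was -1.47 and 2210039B01Rik, at -1.995 with all libraries, was -2.59, and -1.65 without WT_beta 410. In knockouts Gm3893 moved from -5.76 to -5.24 and Gm15446 from -1.77 to -1.31 with the covariate, Gm15446 to -2.72 without KO_alpha3 50 and Efcab7 from 1.08 to 1.39 without KO_beta 406. Depth limits Gm3893, Gm15446 and 2210039B01Rik in the alpha3 line (4 to 19, 4 to 44 and 13 to 29 reads). Some knockout effects changed sign, and no alternative brought any of the 10 past the threshold within a line. No paired analysis was possible because no replicate number is shared between the groups. Where a value below changed, the cause was not tested.

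The effect in KO_beta against WT_beta turned for Bag3, Gm15446 and Itfg2: to -0.015, -0.015 and -0.0090 with DESeq2 size factors and again with DESeq2 itself, to -0.052, -0.050 and -0.046 with library size alone, to -0.022, -0.021 and -0.016 with no filter, to -0.018, -0.017 and -0.013 in a fit to the 2 groups alone and to -0.27, -1.12 and -0.033 with the Y-linked covariate. 1500015A07Rik turned to -0.024 with library size alone. Without WT_alpha3 45 and 79 and WT_beta 399 and 401, the 4 wild types doubted for other tissues, 1500015A07Rik was -0.10 and Itfg2 -0.0073. Leaving out 1 library at a time gave -0.080 to 0.070 for Bag3, -0.25 to 0.17 for Gm15446, -0.026 to 0.021 for Itfg2, -0.11 to 0.11 for 1500015A07Rik, -0.094 to 0.041 for Zfp932, -0.12 to 0.36 for Efcab7, -0.59 to 0.028 for Gm3893 and -0.18 to 0.0026 for Rab3gap1.

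In KO_alpha3 against WT_alpha3, Efcab7 was -0.12 with the Y-linked covariate, and without the 4 wild types 1500015A07Rik was -0.044 and Itfg2 0.053. Leaving out 1 library gave -0.052 to 0.14 for Efcab7, -0.10 to 0.028 for Itfg2 and -0.022 to 0.099 for 1500015A07Rik. The difference of the knockout effects turned with the Y-linked covariate to 1.30 for Gm3893, 0.12 for Bag3 and 0.0051 for Itfg2, and without the 4 wild types to 0.060 for Itfg2. Leaving out 1 library gave -0.30 to 0.18 for 2210039B01Rik, -0.089 to 0.043 for Itfg2, -0.046 to 0.17 for 1500015A07Rik and -0.32 to 0.15 for Efcab7. Against the 8 wild types, Gm3893 in KO_alpha3 was -3.57 with the Y-linked covariate and -4.55 without WT_beta 410, 2210039B01Rik -1.34 and -1.33, and 1500015A07Rik in KO_beta -1.70 with the covariate. Bag3 in KO_alpha3 was -0.012 with library size alone and -0.056 to 0.11 with 1 library left out.

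Counts of genes moved more. DESeq2 called 3 genes in KO_alpha3 against WT_alpha3, 5 in KO_beta against WT_beta, 6 in the difference of effects, 186 between the lines, 32 in wild types, 42 in knockouts, 128 in KO_alpha3 against the 8 wild types and 1 in KO_beta against them. The Y-linked covariate gave 399 between the lines, 5 in wild types and 2 in KO_beta against WT_beta. Without the 4 wild types there were 2 in the difference of effects, 11 between the lines, 10 in knockouts and 122 genes with the lines fully apart. The difference of effects gave 2 with no filter, and the 2 groups alone 7 in KO_beta against WT_beta. With 1 library left out the counts were 10 (without KO_beta 402; 11 without KO_alpha3 42) to 29 (without WT_alpha3 55 or KO_alpha3 50) between the lines, 2 to 7 (without KO_alpha3 81; 5 without KO_alpha3 50) in wild types, 3 (without KO_alpha3 75 or KO_beta 402) to 32 (without KO_alpha3 50) in knockouts, 1 to 3 (without KO_alpha3 50; 2 without KO_alpha3 75) in the difference of effects, 1 to 124 (without KO_alpha3 50) in KO_alpha3 against the 8 wild types and 33 to 61 (without KO_beta 398; 59 without WT_beta 401 and 56 without WT_alpha3 55) for genes with the lines apart.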
